A study of Drosophila melanogaster with 3 samples.

Results

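The 80 genes described here encode subunits of the respiratory chain and of ATP synthase in Drosophila melanogaster. They are the protein-coding nuclear genes of the Ensembl annotation whose names start with ND-, COX and a digit, UQCR- or ATPsyn, out of 13945 protein-coding genes on the nuclear chromosome arms. There were 40 genes of complex I, 9 of complex III, 16 of complex IV and 15 of complex V. Within them, 21 carry names ending in L, with or without a digit, which marks them as copies of another subunit gene; ND-MNLL does not belong to these, since MNLL is the name of its bovine counterpart. These data are from chromatin immunoprecipitation followed by sequencing (ChIP-seq) of whole prepupae, males and females together, the stage at which metamorphosis begins. The flies were of 1 transgenic line that makes Plzf, the zinc finger protein of CG6792, with green fluorescent protein (eGFP) at its C terminus. The labels name an anti-GFP antibody in one field and CG6792 in another, and which sequence drives the transgene is not given in the sources used here. There was 1 group of 3 biological replicates and no second condition, so genes were compared with genes, and no test between conditions was possible.

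Oxidative phosphorylation passes electrons from NADH and succinate through complexes I to IV to oxygen, and the proton gradient so made drives ATP synthase, which is complex V. Complex I oxidises NADH, complex III oxidises ubiquinol, and complex IV, cytochrome c oxidase, reduces oxygen. Most subunits are encoded in the nucleus and a few by the mitochondrial genome, so the supply of subunits depends on both genomes. In Drosophila many of the L-named copies are expressed mainly in the testis.

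Each deposited region has a summit, its point of greatest enrichment, and a signal, its height as deposited by the authors, which is scaled within its own list. The optimal list holds 7096 peaks chosen by the irreproducible discovery rate (IDR) from a pooled list of 30000 regions, and each replicate has its own list of 30000 regions, in which peaks and background stand together. The 7096 optimal peaks were those of highest signal in the pooled list, with a lowest signal of 79.6. The strongest regions of a replicate are, in the following, the 7096 of highest signal in its list. Median signals were 12.1, 18.3 and 11.4 in replicates 1, 2 and 3, so signals were not compared between lists and ranks were given instead. A gene counts as having a peak where a summit lies within 500 bp of one of its transcription start sites (TSSs). Offsets from a TSS are negative upstream. The animals were not dissected, so a region is an average over all tissues, and fewer cells with binding cannot be told apart from weaker binding per cell.

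The optimal peaks at these genes lay mostly in short AT-rich stretches between the TSSs of a pair of genes that point away from each other. To show this sequence, 101 bases centred on the summit are given for 6 peaks in which the window touches no annotated exon. They are the strongest peak (ND-ASHI), the peaks with matches to an element known from nuclear respiratory genes of Drosophila (ND-SGDH and ND-MNLL), a complex V peak with a CGATA match (ATPsynCF6), a peak with no match to any motif searched (COX7B) and the peak with no divergent neighbour (ND-B17). Each is written 5′ to 3′ on the strand of the named gene, from the RefSeq sequence of dm6 (Release 6), in lower case with motif matches on either strand in capitals. The windows are chrX:6679302-6679402 on the minus strand for ND-ASHI, chr3L:12138630-12138730 on the minus strand for ND-SGDH, chrX:7893804-7893904 on the minus strand for ND-MNLL, chr3R:23356135-23356235 on the minus strand for ATPsynCF6, chr3L:17425304-17425404 on the plus strand for COX7B and chr2L:15751219-15751319 on the minus strand for ND-B17.
ND-ASHI: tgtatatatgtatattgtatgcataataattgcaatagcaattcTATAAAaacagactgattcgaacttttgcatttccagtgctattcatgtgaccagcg
ND-SGDH: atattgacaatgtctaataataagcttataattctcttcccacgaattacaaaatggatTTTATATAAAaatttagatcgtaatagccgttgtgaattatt
ND-MNLL: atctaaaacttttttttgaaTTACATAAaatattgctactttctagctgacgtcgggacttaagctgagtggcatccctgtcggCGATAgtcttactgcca
ATPsynCF6: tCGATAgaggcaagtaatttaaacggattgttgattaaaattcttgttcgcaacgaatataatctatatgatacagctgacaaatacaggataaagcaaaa
COX7B: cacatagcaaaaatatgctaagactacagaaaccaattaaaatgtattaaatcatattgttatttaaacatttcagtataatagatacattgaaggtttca
ND-B17: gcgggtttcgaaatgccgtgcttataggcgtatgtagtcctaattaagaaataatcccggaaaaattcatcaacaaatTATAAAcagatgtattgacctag
The capitals mark TATAAA, the letters of a TATA box, in ND-ASHI and ND-B17, CGATA in ATPsynCF6 and ND-MNLL, and TTACATAA in ND-MNLL. In ND-SGDH they mark TTATATAA together with TATAAA matches that overlap it. The ND-ASHI and ND-B17 windows are centred 234 and 191 bp upstream of the TSSs of these genes, so their TATAAA matches do not lie just upstream of those TSSs.

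Across all 15 optimal peaks at these genes, the 101 bases around the summit had a GC content of 31.5% ± 9.51 (SD, n = 15 peaks), with a range of 17.8 to 50.5%. The 2412 optimal peaks at any protein-coding TSS had 34.5% ± 10.1 (SD). Windows of the same width centred 300 bp to each side had 46.7% ± 8.37 at the members' peaks, and the summit was lower than its flanks at 13 of 15. Of all optimal promoter peaks, 75.7% were lower than their flanks. A low GC content at the summit was therefore shared by the members' peaks and by promoter peaks in general. No test was made.

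Of the 80 genes, 15 had an optimal peak at a TSS (18.8%, 95% Wilson interval 11.7 to 28.7), and the share over all protein-coding genes was 19.8% (2761 genes). A pooled region was present at 36 of the 80 genes (45.0%, interval 34.6 to 55.9), against 42.8% of all genes. Of these 36 genes, 15 had a region that was in the optimal list (41.7%, interval 27.1 to 57.8), against 46.3% of all genes with a pooled region. As a whole the gene set therefore stood near the background in both lists, and its intervals, which cover the counting of genes only, included the background each time.

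Among the strongest regions of the replicates, 16 of the 80 genes had one in replicate 1 (20%), 13 had one in replicate 2 (16.2%) and 14 had one in replicate 3 (17.5%), with a mean share of 17.9% ± 1.91 (SD, n = 3). The shares over all genes were 20.6%, 19.4% and 21.7% in replicates 1, 2 and 3, with a mean of 20.6% ± 1.15 (SD, n = 3). The members' share was below that of all genes in each replicate, and each member interval in the plot of shares by list includes the share of all genes. With all 30000 regions of each replicate, 40, 44 and 42 of the 80 genes had a region (50%, 55.0% and 52.5%), against 44.3%, 46.0% and 45.2% of all genes in replicates 1, 2 and 3. The order of members and background was thus the opposite in the full lists, where the members had a mean of 52.5% ± 2.50 and all genes 45.2% ± 0.820 (SD, n = 3). A strongest region was present in all 3 replicates at 9 genes, each of which had an optimal peak. It was present in 2 replicates at 6 genes, in 1 at 4 genes and in none at 61. All genes were not counted by number of replicates, so these counts describe the members only.

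**Figure D1:**
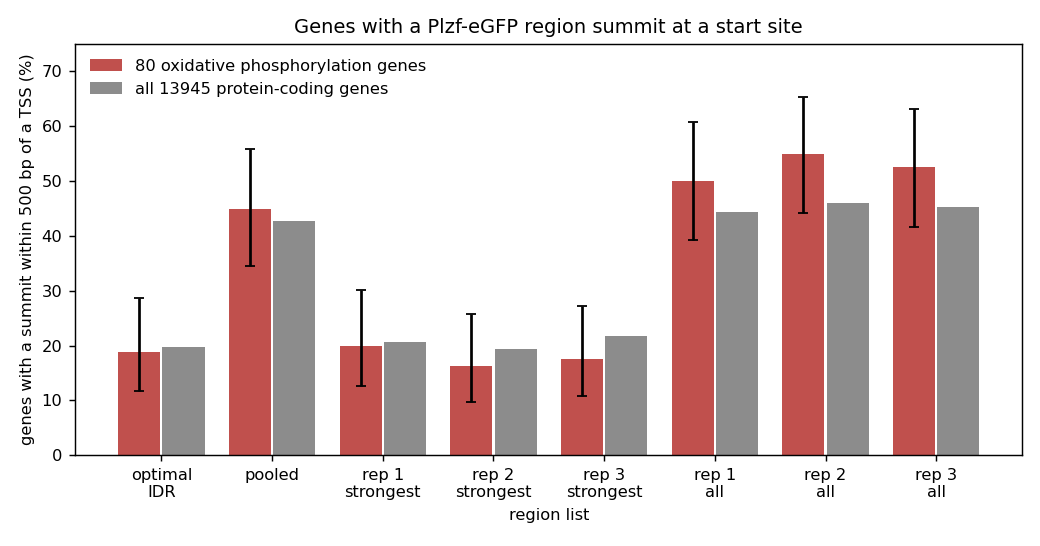
Share of genes (%) with a region summit within 500 bp of a TSS in each list, for the 80 oxidative phosphorylation genes and all 13945 protein-coding genes; bars on the 80 genes are 95% Wilson intervals. The optimal shares are 18.8% for the 80 genes and 19.8% for all genes, and each interval includes the share of all genes.

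The genes divided by complex and by kind of copy. Optimal peaks were found at 9 of 40 complex I genes (22.5%), at none of 9 complex III genes, at 4 of 16 complex IV genes (25%) and at 2 of 15 complex V genes (13.3%). These counts stand beside the 19.8% of all genes, and no difference between complexes was tested. All 15 genes with an optimal peak were among the 59 without an L name, a share of 25.4% (interval 16.1 to 37.8), an interval that includes the 19.8% of all genes. They were 9 of 34 in complex I, 4 of 8 in complex IV and 2 of 11 in complex V. Of the 21 L-named copies none had an optimal peak, which allows a share of up to 15.5% by the Wilson interval, and none had a strongest region in any replicate. A pooled region was present at 2 of the L-named copies (9.52%), against 34 of the 59 other genes (57.6%) and 42.8% of all genes. These were COX7AL2, with a signal of 29.0 at a summit 320 bp downstream of its TSS, and ATPsynepsilonL, with a signal of 34.0. A further 4 copies had a region in a replicate list only, and 15 had no region in any list. The shares of all genes in these classes were not counted. In the full replicate lists the L-named copies had regions at 9.52%, 9.52% and 28.6% in replicates 1, 2 and 3, and the 59 other genes at 64.4%, 71.2% and 61.0%, beside 44.3%, 46.0% and 45.2% of all genes. The copies thus had fewer regions than the other subunit genes in every replicate, the gap being smallest in replicate 3.

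**Figure D2:**
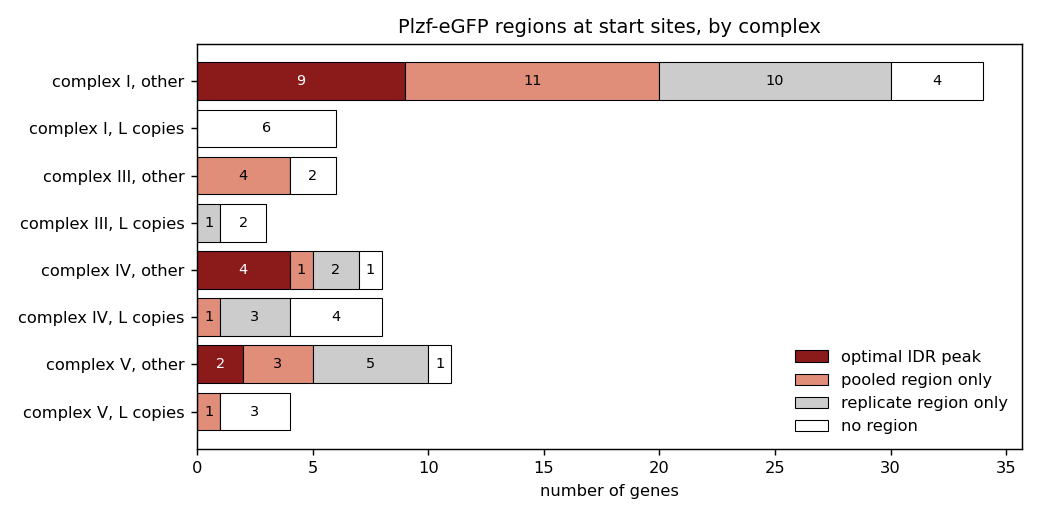
Number of genes of each complex by the list that holds a region at a TSS (optimal, pooled only, replicate only, or none), with L-named copies drawn apart from the other genes. Optimal peaks appear in complexes I, IV and V and in none of the L-named groups.

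Among the 80 genes, complex I, the largest group, held the strongest peaks. ND-ASHI, an accessory subunit, had the strongest, with a signal of 671.0 (rank 276) in the pooled list. Its signal was 207.8 (rank 247) in replicate 1, 280.5 (rank 306) in replicate 2 and 172.4 (rank 346) in replicate 3. It stood within the 346 strongest regions of every replicate. The peak at chrX:6679155-6679545 had its summit 234 bp upstream of the ND-ASHI TSS and 288 bp upstream of a TSS of Fum1, fumarase of the tricarboxylic acid (TCA) cycle, in an intron of Fum1 that starts at an earlier TSS. The other ND-ASHI start sites lay 1092 and 1191 bp from the summit, outside the 500 bp reach.

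ND-MWFE, a small accessory subunit of the membrane arm, had a signal of 366.1 (rank 936) in the pooled list. It had 125.1 (rank 731) in replicate 1, 95.7 (rank 2036) in replicate 2 and 138.1 (rank 534) in replicate 3, so its rank was lowest in replicate 2. The peak lay on 2R at positions 13158364 to 13158633, 176 bp upstream of ND-MWFE and 45 bp upstream of a TSS of TppII, a large peptidase, in an intron of a longer TppII transcript. ND-42, an accessory subunit, had 2 optimal peaks. The stronger, at chr3R:22027248-22027687, had a signal of 252.6 (rank 1682) in the pooled list and 85.2, 87.9 and 88.4 in replicates 1, 2 and 3 (ranks 1420, 2304 and 1195). It lay 241 bp upstream of ND-42 and in the 5′ UTR of Cchl, the lyase that attaches haem to cytochrome c, 12 bp downstream of a Cchl TSS. The weaker had a signal of 179.7 (rank 2710) and lay 38 bp upstream of ND-42, between the genes. ND-42 was the only one of the 15 genes with more than 1 optimal peak.

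The core subunits of complex I with an optimal peak were ND-24, ND-51 and ND-23, which by homology carry iron-sulfur clusters, ND-51 also binding the flavin that accepts electrons from NADH. ND-24 had a signal of 199.0 (rank 2365) in the pooled list, with ranks of 1943, 3908 and 1958 in replicates 1, 2 and 3. ND-51 had 169.9 (rank 2923), with ranks of 3750, 3382 and 2038 in replicates 1, 2 and 3. Both had a strongest region in every replicate. ND-23 had 99.8 (rank 5545), with ranks of 5014, 5640 and 9414 in replicates 1, 2 and 3. In replicate 3 its region fell outside the strongest ones, and its summit in replicate 1 had an offset of -268 bp from the TSS, while the pooled summit had one of -148 bp. The neighbours of the 3 genes were corolla, a protein of the synaptonemal complex, for ND-24, CG13994 for ND-51 and spn-E, a helicase of the piRNA pathway, for ND-23.

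The accessory subunits ND-SGDH, ND-MNLL and ND-B17 completed the 9 genes of complex I. ND-SGDH had a pooled signal of 202.6 (rank 2305) and ranks of 1792, 2613 and 2048 in replicates 1, 2 and 3. ND-MNLL had a pooled signal of 126.8 (rank 4161) and ranks of 5648, 7641 and 2618 in replicates 1, 2 and 3. ND-B17 had a pooled signal of 87.3 (rank 6424), no region in replicate 1, and ranks of 8240 and 5372 in replicates 2 and 3. ND-SGDH was thus within the strongest regions of all replicates, ND-MNLL of replicates 1 and 3, and ND-B17 of replicate 3 alone. The ND-MNLL peak lay 177 bp upstream of p115, a tether of Golgi vesicles, and ND-MNLL shares its TSS with CG45089. The ND-B17 peak, 191 bp upstream of its gene, had no other protein-coding gene in reach.

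Within complex IV, the optimal peaks were at COX5A, COX5B, COX7B and COX6B, nuclear-encoded subunits that surround the catalytic core. COX5A had a pooled signal of 148.0 (rank 3450) and signals of 48.5, 38.0 and 53.6 in replicates 1, 2 and 3 (ranks 3175, 6813 and 2530). The other peaks of complex IV were weaker. COX5B had a pooled signal of 86.1 (rank 6521) and 30.1, 27.5 and 30.5 in replicates 1, 2 and 3 (ranks 5662, 9952 and 5097). COX7B had a pooled signal of 84.0 (rank 6686) and 31.6, 28.3 and 30.4 in replicates 1, 2 and 3 (ranks 5379, 9646 and 5108). COX5B and COX7B both lay outside the strongest regions of replicate 2. COX6B had the lowest signal of the 15 genes, 83.2 (rank 6747), and 25.4, 37.2 and 14.4 in replicates 1, 2 and 3 (ranks 6830, 6990 and 11514). The neighbouring genes were glo, which encodes an RNA-binding protein, for COX5A, IFT52, of intraflagellar transport, for COX5B and Sec3, of the exocyst, for COX7B. At COX6B they were CG33932, Rpp20 and CG18809, the last of which shares a TSS with COX6B.

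In complex V, ATPsynE, a subunit of the membrane part, had a pooled signal of 164.7 (rank 3022), with 47.6, 66.4 and 51.8 in replicates 1, 2 and 3 (ranks 3262, 3373 and 2658). ATPsynCF6, coupling factor 6 of the peripheral stalk, had 122.9 (rank 4333), with 43.1, 49.9 and 32.4 in replicates 1, 2 and 3 (ranks 3660, 4849 and 4747). Both were strongest regions in every replicate. The ATPsynE summit lay in the 5′ UTR, 2 bp from the TSS, and 260 bp upstream of Afti, a protein of clathrin-mediated traffic. The ATPsynCF6 summit lay between its TSS and that of Sec13, a coat protein of vesicles and of the nuclear pore, 121 and 93 bp upstream of them.

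**Figure D3:**
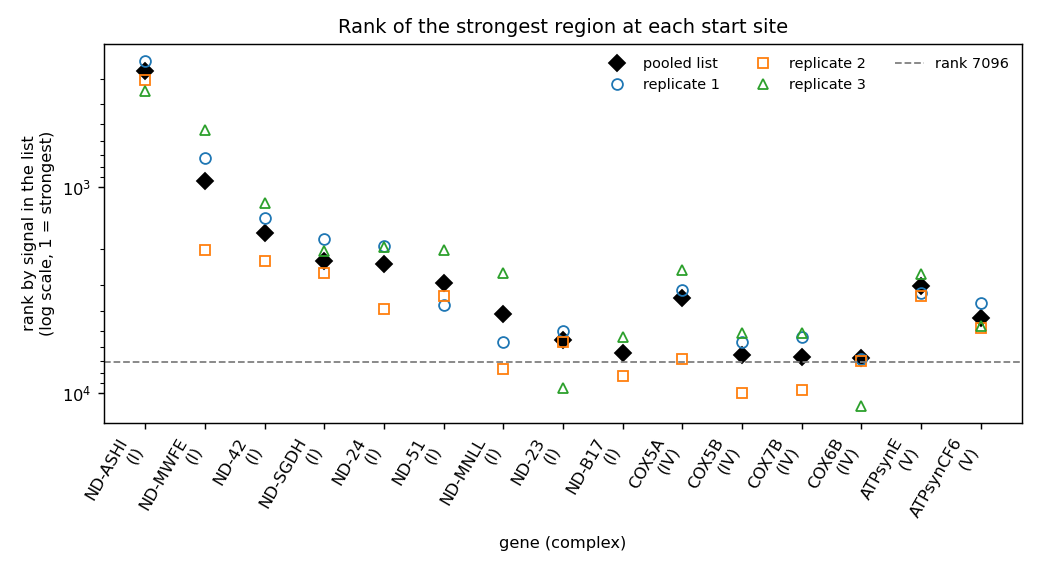
Rank by signal (log scale, 1 is the strongest) of the strongest region at each of the 15 genes in the pooled list and in each replicate; the dashed line is rank 7096, the number of optimal peaks. ND-ASHI holds ranks 247 to 346 in the replicates, and the regions of ND-MNLL, ND-B17, COX5B and COX7B in replicate 2 and of ND-23 and COX6B in replicate 3 lie below the line.

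The members' peaks spread over the signals of all genes with an optimal peak. Their median was 148.0 (range 83.2 to 671.0), against 168.6 (79.6 to 2760) for the 2761 genes. Up to a signal of 113.5, the 25th percentile of these genes, there were 5 members, and a further 4 lay between that and the median. Another 4 lay between the median and the 75th percentile, 300.7, and 2, ND-ASHI and ND-MWFE, lay above it, so 6 of the 15 were above the median of all. The optimal peak was matched by a strongest region of the replicate with a summit within 100 bp at 13 of 15 genes in replicate 1, 11 in replicate 2 and 13 in replicate 3, and in all 3 at 9. Since the optimal peaks come from a pool of these replicates, these counts describe the peaks and are no independent measure of agreement. They were not made for the other optimal peaks, so whether they are usual for the list is not known.

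Just outside the optimal list were ND-B22 and ND-B17.2, accessory subunits of complex I. ND-B22 had a pooled signal of 79.4 (rank 7118) and ranks of 7116, 8329 and 7325 in replicates 1, 2 and 3. ND-B17.2 had 78.2 (rank 7224) and ranks of 9938, 8593 and 8214 in replicates 1, 2 and 3. Neither reached the strongest regions of any replicate. COX6B and COX7B, just inside, each had a strongest region in 2 replicates. Within 20% below the lowest optimal signal there were also ATPsyngamma, the central rotor stalk of ATP synthase, with 68.8 (rank 8271), and UQCR-14, with 63.9 (rank 8938). ATPsyngamma ranked 5610, 12586 and 9751 in replicates 1, 2 and 3, and UQCR-14 ranked 10166, 10856 and 9633.

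UQCR-14 was also the strongest of complex III, in which 4 of 9 genes had a pooled region (44.4%, against 42.8% of all genes). The others were UQCR-C2 with 40.2 and UQCR-C1 with 25.3, the core proteins of the complex, and UQCR-11 with 19.3. No complex III gene had a strongest region in any replicate, which for 9 genes allows a share of up to 29.9% by the Wilson interval. The shares over all genes were 20.6%, 19.4% and 21.7% in replicates 1, 2 and 3, and 3 of the 9 genes are L-named copies. UQCR-6.4 and UQCR-Q had no region in any list.

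A few genes had a strongest region in a replicate without an optimal peak. COX8, a small subunit of complex IV, had no pooled region in reach, yet had signals of 64.4 (rank 2167), 35.5 (rank 7369) and 26.2 (rank 6093) in replicates 1, 2 and 3. COX8 was among the strongest regions of replicates 1 and 3 and just outside those of replicate 2. COX7C had rank 4683 in replicate 2, against 15218 and 20098 in replicates 1 and 3, and ATPsynC, the ring subunit of ATP synthase, had rank 6970 in replicate 2, against 10469 and 13509. These regions were strong in replicate 2 alone. Conversely, ND-75, the large iron-sulfur subunit of complex I, ND-30, ND-39, ND-B14.7, COX7A, ATPsynF, UQCR-6.4 and UQCR-Q had no region in any list. These 8 are the genes without an L name that were in no list. The share of all genes in no list was not counted, and 42.8% of all genes had a pooled region.

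Nearly all of the peaks lay at promoters shared with a neighbouring gene. At 14 of 15 genes (93.3%, interval 70.2 to 98.8) the strongest optimal peak was also in reach of another protein-coding gene, and at each of these 14 a gene in the opposite direction was among them. Of all 2761 genes with an optimal peak, 52.2% had another protein-coding gene in reach of their strongest peak and 49.2% a divergent one. The distance between the TSSs of the pair was 20 bp at the least (COX5A and glo), 232.5 bp at the median and 522 bp at the most (ND-ASHI and Fum1). Fum1 and Cchl are themselves mitochondrial proteins of energy metabolism, whereas the other neighbours named have roles elsewhere in the cell or roles not given here.

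Measured from the nearest TSS, the summit was upstream of the member at 11 of 15 genes (73.3%), against 85.9% of all genes with an optimal peak. The median offset was -121 bp, against -147 bp, and 66.7% of the members' summits, against 45.6%, lay within 150 bp. At 9 genes the summit lay between both divergent start sites. The 4 genes whose summit was downstream of the nearest TSS had a further annotated start site beyond it. For COX5A the summit was 115 bp downstream of 1 start site and 125 bp upstream of another, which is used by 3 annotated transcripts. For ND-24 the offsets were 98 and -134 bp, for COX6B 12 and -275 bp, and for ATPsynE 2 and -119 bp. Counting any annotated start site, the summit was upstream of both genes at all 14 pairs. Of the 15 summits, 8 lay outside any annotated gene, 4 in an intron and 3 in a 5′ UTR. These places are approximate, since 13 of the 15 peaks had the same width, 440 bp, and the median gap between paired TSSs was 232.5 bp. At ND-23, for example, the summit offset was -148 bp in the pooled list and -268 bp in replicate 1. The nearest TSS belonged to the member at 9 genes, 2 of them tied with a gene that starts at the same position, and to another gene at 6, so at the 14 pairs a peak cannot be assigned to the subunit gene rather than to its neighbour.

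**Figure D4:**
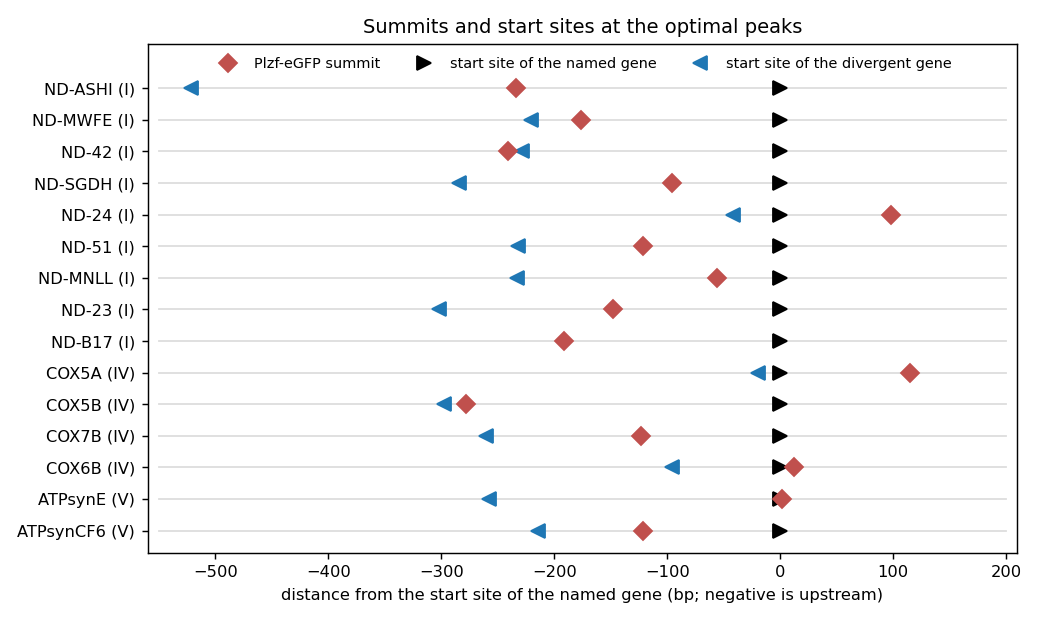
Position of the strongest optimal summit and of the nearest divergent TSS at each of the 15 genes, in bp from the nearest TSS of the named gene, negative being upstream. At 9 genes the summit lies between both start sites, and ND-B17 has no divergent gene in reach.

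Divergent promoters were more common among the members than among all genes. In both sets, an optimal peak was more frequent at genes with a divergent neighbour than at genes without one. A divergent protein-coding TSS lay within 500 bp upstream of 38 of the 80 genes (47.5%), against 27.4% of all genes. Of the 38 members with such a neighbour, 14 had an optimal peak (36.8%, interval 23.4 to 52.7), and the share over the 3815 such genes of the genome was 36.0%. Of the 42 members without one, 1 had an optimal peak (2.38%, interval 0.421 to 12.3), and the share over the other 10130 genes was 13.7%. Members with a divergent neighbour were thus near their background, and members without one were below theirs. Without the L-named copies the counts were 14 of 35 (40.0%) and 1 of 24 (4.17%), and the interval of this last share, 0.739 to 20.2%, includes 13.7%. Of the L-named copies 3 of 21 had a divergent neighbour. A summit counts for every gene within 500 bp, so a gene beside a close neighbour can count a peak nearer to that neighbour. This way of counting can raise the share at divergent pairs, and the split was not recomputed with the nearest gene only. This comparison was added after the peaks had been seen, and no test was made.

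**Figure D5:**
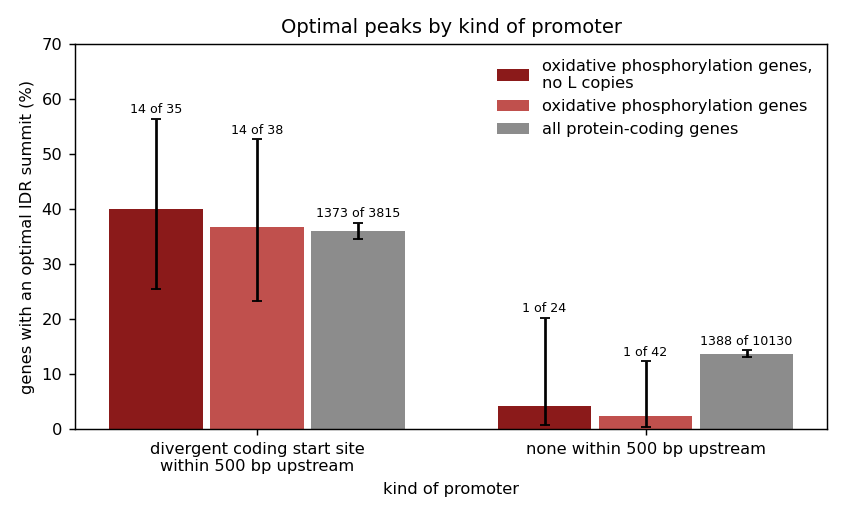
Share of genes (%) with an optimal summit within 500 bp of a TSS, by whether a divergent protein-coding TSS lies within 500 bp upstream, for the oxidative phosphorylation genes without and with L-named copies and for all protein-coding genes; bars are 95% Wilson intervals and counts stand above them. The 14 peaks of genes with a divergent neighbour make 36.8%, against 36.0% over all such genes.

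Motifs were searched around each summit, 50 bp to each side, as exact letters of either strand. CGATA, the core of sites for the insulator protein BEAF-32, was present at 5 of the 15 peaks (33.3%; ND-42, ND-MNLL, COX5B, COX6B and ATPsynCF6), against 16.7% of the 2412 optimal promoter peaks. TATAAA was present at 5 peaks (ND-23, ND-ASHI, ND-B17, ND-MWFE and ND-SGDH), against 21.3%. TGATAA, bound by GATA factors, was present at 2 (ND-MWFE and COX5A), against 9.62%. The forms TTACATAA and TTATATAA of the respiratory gene element were present at 1 peak each, ND-MNLL and ND-SGDH, against 1.20% and 1.29% of all promoter peaks. No member peak held the DRE (TATCGATA), the E-box (CACGTG), the TTACGTAA form of the respiratory element, the core of the site of ewg (TGCGCA), that of motif 1 (GGTCACAC), or the heptamers TAATATA and TCTTAAA. Of all optimal promoter peaks, 2.45% held the DRE, 0.663% the E-box, 0.249% the TTACGTAA form, 2.36% the TGCGCA core and 1.04% the core of motif 1, while 7.75% held the heptamer TAATATA and 5.31% the heptamer TCTTAAA. At these shares, a count of 0 among 15 peaks says little. These counts are too few to read a difference from, and a match is a string of letters, not a bound site. The summit sequences printed above show where the matches lie.

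The promoters of all 80 genes, 250 bp before to 50 bp after the TSS of the canonical transcript, were searched in the same way and set against those of 13944 protein-coding genes. Their GC content was 35.7% ± 6.51 against 39.3% ± 7.80 (SD). GGTCACAC, the core of motif 1 of Drosophila core promoters, was present in 20% of the members' promoters, against 7.54% of all. TCTTAAA was present in 20% against 8.91%, with 9 of the 21 L-named copies (42.9%) and 7 of the 59 other genes (11.9%). For GGTCACAC the split was the other way, with 1 of 21 L-named copies (4.76%) and 15 of 59 other genes (25.4%). TGATAA was present in 12.5% of the members' promoters against 22.8% of all. The shares were closer for CGATA (48.8% against 46.9%), TATAAA (47.5% against 45.3%), TAATATA (18.8% against 13.3%) and TATCGATA (10% against 8.94%), which contains CGATA. They were low in both sets for TGCGCA (5.00% against 7.02%), CACGTG (5.00% against 4.26%), TTATATAA (3.75% against 2.57%), TTACATAA (2.50% against 2.17%) and TTACGTAA (0 against 0.480%). TAATATA and TCTTAAA were taken from an earlier look at all peaks, and no test was made of any motif.

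Other genes of the pathway were listed by name, and 48 were found in the annotation. Of these, 11 had an optimal peak (22.9%) and 32 a pooled region, beside the 19.8% and 42.8% of all genes. In complex II, succinate dehydrogenase, SdhC had an optimal peak (signal 109.9), 1 of 6 genes, in reach of Tctp as well. Of 13 subunits and carriers outside the 4 name prefixes, 3 had an optimal peak. They were blw, the alpha subunit of ATP synthase (263.1), levy, a subunit of complex IV (128.3), and Cyt-c-d, one of the cytochrome c genes (719.7). The levy peak was also in reach of wmd. The Cyt-c-d summit lay 402 bp downstream of its TSS and was also in reach of CG31808, while Cyt-c-p, the other cytochrome c gene, had only a pooled region of signal 53.1. The name prefixes thus leave out subunits of ATP synthase and of complex IV that had an optimal peak.

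Of 9 assembly factors 3 had an optimal peak (33.3%, against 19.8% of all genes). CIA30, which helps to build complex I, had the strongest peak of all genes listed, with a pooled signal of 1304 (rank 52). Its ranks were 40, 75 and 40 in replicates 1, 2 and 3. The CIA30 peak was also in reach of CG7601. The others were Cox17, a copper chaperone of complex IV (232.0), and Coa8 (85.3). In the TCA cycle 4 of 13 genes had an optimal peak (30.8%, against 19.8% of all genes). Fum1 shares that of ND-ASHI, Idh3g and Idh3b, subunits of isocitrate dehydrogenase, had signals of 646.3 and 107.9, and mAcon1, aconitase, had 269.5. The Idh3g peak was also in reach of CG4743 and the mAcon1 peak of CG43345 and CG43346. Of 7 genes for regulators of respiration genes none had an optimal peak, against 19.8% of all genes, which says little for 7 genes. A pooled region was present at 3 of them (ewg 51.8, Myc 56.7 and mtTFB2 30.0), against 42.8% of all genes, while srl and Ets97D had no region in any list. PolrMT, the mitochondrial RNA polymerase, had no pooled region in reach but ranked 6351 in replicate 1 and 4357 in replicate 3, among the strongest regions of both, and had no region in replicate 2.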

How the data were processed

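Plzf-eGFP ChIP-seq of whole prepupae gave region lists for 3 replicates of 1 group, their pool and an optimal IDR-thresholded set, per the labels and the accompanying notes. Signal is the peak height that the authors deposited, on the scale of each list. Regions were called against a control, per the file headers. No source used here gives the aligner, the caller, their versions or the IDR cut-off. Reads per library are unknown, so no value carries a depth. The dm3 lists were not used.

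Summits (region start plus deposited offset) on dm6 were placed within 500 bp of the TSSs of all transcripts in Ensembl release 115. All 80 members had the same coordinates in the RefSeq table of the same assembly. Region and gene ends lay within its chromosomes. Counting was tested on simulated data. Python 3.11.15, pandas 2.3.3, numpy 2.4.6, scipy 1.17.1 and matplotlib 3.10.9 were used. With 1 group, no test was made, and replicates give mean ± SD. Wilson intervals of 95% cover the counting of genes, which are not independent where they share a summit.

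The members and lists were chosen with earlier results of these data known. Values in every list are given for the 3 strongest members per complex, the 2 weakest with an optimal peak, the 2 strongest without one and those within 20% below the threshold. Values of other genes with an optimal peak, and of COX8, COX7C and ATPsynC, were added after they were seen. Cox15, bcs1, foxred1 and Nc73EF were not found under these names. Sequences from 2R, or touching an exon, are not printed, and 1 neighbouring gene is not reported here.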

Additional observations from a re-analysis of the deposited data

Results flagged for a closer look

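The list of replicate 2 held 6 regions on the mitochondrial genome, where the optimal and pooled lists and replicates 1 and 3 held 0. These regions were in no comparison, because the genes described are nuclear. All 6 summits lay in genes for the 3 mitochondrially encoded subunits of complex IV: 3 in mt:CoI, 1 in mt:CoII and 2 in mt:CoIII. The regions lay between positions 1681 and 5522. Those at 1681 to 2071 and 1681 to 2176 overlapped, as did those at 4866 to 5289 and 5099 to 5522, so the 6 are not all separate places. Their signals in replicate 2 were 768.2 (rank 19), 170.9 (rank 818) and 78.5 (rank 2678) for mt:CoI, 512.6 (rank 60) for mt:CoII, and 367.0 (rank 146) and 269.9 (rank 333) for mt:CoIII. The source of these regions was not tested.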

How the results depend on the processing

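Of 48 recomputed values, 45 stayed within the interval or replicate spread of the value reported. The share of members with an optimal peak moved to 10% (8 genes) when only peaks of at least the median signal counted, against 11.6% of all genes. With peaks backed by both other replicates it was 11.2 to 15.0% when 1 replicate was left out, against 14.5 to 15.8% of all genes. The lowest of these, 11.2% without replicate 1, also lay outside the interval, and COX5B, COX6B, COX7B, ND-23, ND-B17 and ND-MNLL were lost there. The share per replicate moved to 52.5% with all regions, and was 16.9 to 18.8% with the strongest regions when 1 replicate was left out. With the nearest gene only, 10 members (12.5%, against 15.3% of all genes) had a peak, without ATPsynCF6, COX5A, COX5B, ND-51 and ND-MWFE. Within 1000 bp, 18 members did (22.5%, against 23.6%), among them COX7AL2, the only L-named copy in any alternative, ND-75 and UQCR-14. No paired analysis was possible because there was 1 group.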
